A study of Triticum aestivum with 24 samples.

Results

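BMY1, AGP-S and AGA.1 are 3 wheat genes of starch metabolism, followed here in the leaf sheath of seedlings attacked by Hessian fly larvae. They were chosen by name, with the probe sets of the array that the supplied annotation gives them: 1 for BMY1, a beta-amylase, 1 for AGP-S, an ADP-glucose pyrophosphorylase small subunit, and for AGA.1, another ADP-glucose pyrophosphorylase gene, 1 whose name ends in S1 and 1 whose name ends in A1. These are 4 of 61115 wheat probe sets on the array and 3 of the 102 genes to which the supplied annotation gives a name. All 4 probe sets passed the filter on dim signals and were tested, and the annotation pairs no other probe set with these genes. Total RNA from a piece of the second leaf sheath, 1.5 to 2 cm long and holding the larval feeding site, was hybridised to 24 Affymetrix wheat arrays in 8 groups of 3. Molly is the resistant line, with the gene H13 and an incompatible interaction, and Newton is the susceptible one, with a compatible interaction. Infested sheaths of each were collected 6, 12 and 24 h after the eggs hatched, and sheaths without larvae only at 12 h. Plants were infested at the stage of 2 leaves with the eggs of 10 mated females on 10 plants, and all groups grew at 20 °C by day and 18 °C by night with 14 h of light. How many plants each array represents was not given in the sources used here.

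Leaves store part of the carbon fixed by day as starch in their plastids and break it down at night. ADP-glucose pyrophosphorylase, an enzyme of small and large subunits, makes the ADP-glucose from which starch is built and is the main point of control of that pathway. Beta-amylase works at the other end: it releases maltose from the ends of starch chains. Hessian fly larvae live on the sap of the leaf sheath, and in a compatible interaction the cells at the feeding site turn into a nutritive tissue that supplies them.

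Values are MAS5 signals, the linear intensity per probe set that the authors deposited, and a log2 difference is the fitted difference between group means of log2 signal. Levels are compared between groups within a probe set; brightness relative to other probe sets is given only to show how far a signal stood from background, since it also depends on the probes. The tag controls of the array, 8 probe sets that match no wheat transcript, had a median of 17.2 units and reached 85. All 4 member probe sets lay above 85 units on every array. Hexaploid wheat carries homoeologous copies of most genes, and which copies a probe set detects was not determined here. Green tissue was checked on 4 probe sets of the genes PsbO, PsbP and PRK, whose summed signal lay between 29883 and 52700.3 on every array. A probe set of the Rubisco gene rbcl, not part of that sum, averaged 58.1 units, which the tag controls also reach. These genes do not tell leaf sheath from leaf blade, and sheath identity was not tested. Of 15 probe sets of seed storage protein genes, 12 averaged 62 units or less, which the tag controls also reach, and a probe set each of gli-2 and LMW-GS averaged 143 and 152. The exception, of the avenin-like gene ALP, averaged 4431 units. The signal of the wheat 18S rRNA control was 3943 to 8346 on the 6 uninfested arrays and 1074 to 4208 on the 18 infested ones. With so little overlap, adjusting a comparison with uninfested arrays for this signal cannot separate it from infestation. In these bulk samples, fewer cells of a type and less RNA per cell cannot be told apart.

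BMY1 fell at the feeding site of susceptible Newton and showed no called change in resistant Molly. Uninfested Newton arrays read 755, 722 and 743 units. At 6 h after egg hatch the Newton arrays read 561, 363 and 475, at 12 h 378, 287 and 322, and at 24 h 377, 301 and 239. All 9 infested Newton arrays lay below all 3 uninfested ones, and no array at 12 or 24 h reached the mean at 6 h. The mean went from 739.8 ± 16.7 without larvae to 466 ± 98.9 at 6 h, 329 ± 45.8 at 12 h and 305 ± 69 at 24 h (SD, n = 3).

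**Figure D1:**
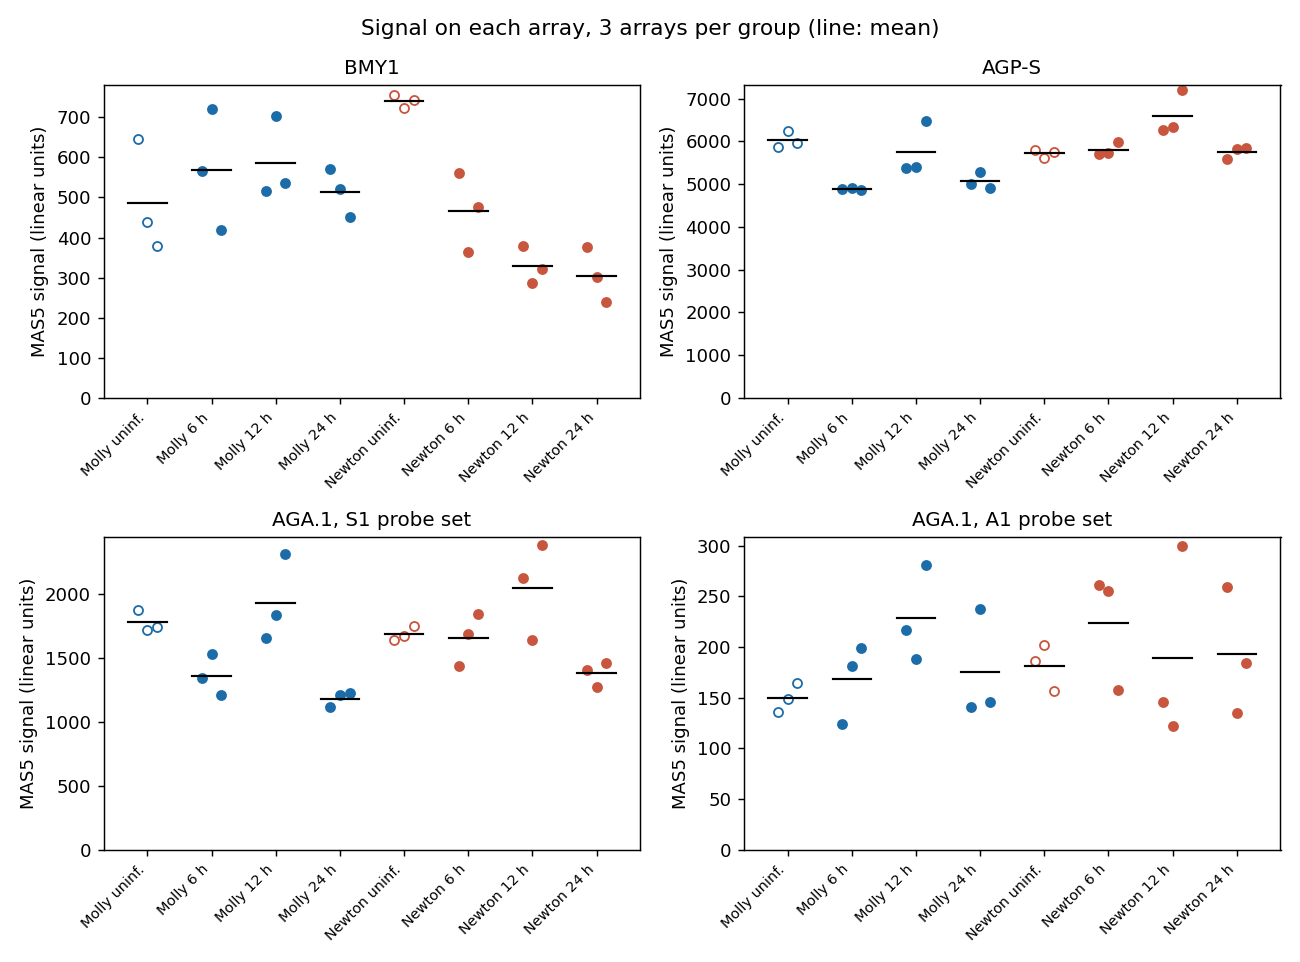
MAS5 signal (vertical axis, linear units from 0) on each of 24 arrays for the 4 probe sets, by group along the horizontal axis; blue is Molly, red is Newton, open circles are uninfested, the 3 points of a group stand left to right in the order of replicate numbers and the line is the mean. BMY1 is at 722 to 755 on the uninfested Newton arrays and at 239 to 561 on the infested ones, while AGP-S stays between 4850.3 and 7201 on every array.

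In the moderated test of limma, with p-values adjusted by the Benjamini-Hochberg method over all 36669 tested probe sets and a threshold of 0.05, BMY1 fell 1.61-fold in Newton at 6 h (log2 difference -0.69, SE 0.218, adjusted p = 0.037). The fall was 2.26-fold at 12 h, where infested and uninfested sheaths were matched in time (-1.18, adjusted p = 0.00075), and 2.46-fold at 24 h (-1.30, adjusted p = 0.00014). The share of all tested probe sets called as falls was 6.54% at 6 h, 7.76% at 12 h and 13.8% at 24 h. The call at 6 h was weak: it was lost without Newton 6 h replicate 2 (-0.52, adjusted p = 0.16) or 3 (-0.71, adjusted p = 0.072), without uninfested replicate 1 (-0.67, adjusted p = 0.097), 2 (-0.71, adjusted p = 0.078) or 3 (-0.69, adjusted p = 0.085), and with no filter on dim probe sets (adjusted p = 0.054). At 12 and 24 h no array decided the call, the log2 difference running from -1.28 to -1.09 and from -1.47 to -1.14 as each was left out. The same 3 uninfested arrays serve all 3 times, so these comparisons are not independent, and since they were sampled at 12 h, infestation, plant age and time of day cannot be told apart in the falls at 6 and 24 h. They were numbered but not called biological in the labels, so their own spread may be only technical. The p-values rest on a spread pooled over all 24 arrays, of which the 18 infested ones were labelled biological replicates.

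In Molly, BMY1 read 646, 438 and 378 units without larvae. The arrays read 565, 719.7 and 419 at 6 h, 517, 703 and 537 at 12 h, and 570.1, 522 and 450 at 24 h. Every infested group overlapped the uninfested one. The log2 difference was 0.22 at 6 h (95% interval -0.23 to 0.68, adjusted p = 0.46), 0.29 at 12 h (-0.17 to 0.74, adjusted p = 0.34) and 0.11 at 24 h (-0.35 to 0.56, adjusted p = 0.78). A fall in Molly as large as the fitted one in Newton at the same time lies outside each of these intervals. Adjusted for the 18S rRNA signal, the 3 values in Molly were -0.15, -0.15 and -0.14, none of them called.

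The difference between the lines was itself called at every time. The response of BMY1 in Molly minus that in Newton was 0.91 at 6 h (SE 0.309, adjusted p = 0.037), 1.47 at 12 h (adjusted p = 0.0014) and 1.41 at 24 h (adjusted p = 0.0031), while 10.7%, 11.4% and 8.37% of all tested probe sets were called in that direction. The call at 6 h was lost without 8 of the 12 arrays it rests on, each taken in turn (0.72 to 0.93, adjusted p = 0.061 to 0.11): Newton 6 h replicate 2, Molly 6 h replicates 1 and 2, all 3 uninfested Newton replicates and uninfested Molly replicates 2 and 3. It was also lost under 4 other settings, given in the closing section. The uninfested lines entered these differences at unlike levels, 739.8 ± 16.7 in Newton and 487 ± 141 in Molly, with no overlap between their arrays. That log2 difference of -0.64 missed the threshold (SE 0.218, adjusted p = 0.11). It was called only without uninfested Molly replicate 1 (-0.86, adjusted p = 0.046), the brightest of the 3.

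Infested arrays can also be compared at one time with no uninfested array in the difference. The spread behind its SE and p was still fitted over all 24 arrays. At 6 h the lines overlapped (Molly minus Newton 0.27, 95% interval -0.18 to 0.73, adjusted p = 0.39). At 12 h BMY1 was 1.78-fold higher in Molly (0.83, SE 0.218, adjusted p = 0.006), the lowest Molly array at 517 and the highest Newton array at 378. At 24 h it was 1.70-fold higher (0.77, adjusted p = 0.013), with 450 the lowest in Molly and 377 the highest in Newton. Of all tested probe sets, 13.4% were higher in infested Molly at 12 h and 11.7% at 24 h. The call at 24 h was lost without Newton 24 h replicate 3 (0.61, adjusted p = 0.078) or Molly 24 h replicate 1 (0.69, adjusted p = 0.053). Between successive times no change of BMY1 was called in either line; the largest was -0.49 from 6 to 12 h in Newton (95% interval -0.95 to -0.04, adjusted p = 0.31).

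Ordered by geometric mean, BMY1 ran from Newton 24 h (300.1) and Newton 12 h (327) through Newton 6 h (459), uninfested Molly (475), Molly 24 h (512), Molly 6 h (554) and Molly 12 h (580.3) to uninfested Newton (739.7). No pair of neighbours in that order differed beyond its spread (adjusted p from 0.25 to 0.92), and 10 of the 28 pairs of groups did. Most of those set Newton at 12 or 24 h against another group; the exception is Newton at 6 h against uninfested Newton. The 18S rRNA control averaged 6581 ± 1757 units in uninfested Newton and 1567 ± 459, 2444 ± 1173 and 1548 ± 493 at 6, 12 and 24 h. With it as a covariate the falls of BMY1 were larger (-1.21, -1.56 and -1.83, SE 0.332, 0.282 and 0.335, adjusted p = 0.039, 0.0018 and 0.0013). Every infested Newton array lay below every uninfested one in 18S rRNA signal (3398 or less against 4832 or more). The adjusted values therefore cannot separate that signal from infestation. The summed signal of 18 histone probe sets, a mark of dividing cells, was 210403 to 236784 on the uninfested Newton arrays, 129248 to 195023 at 6 h, 114507 to 228630.2 at 12 h and 95376 to 119311 at 24 h. In Molly it was 244039 to 253335 without larvae and 89461 to 107270.1, 111441 to 156957 and 138533 to 237322 at 6, 12 and 24 h. The part of the histone signal in the fall of BMY1 was not tested.

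**Figure D2:**
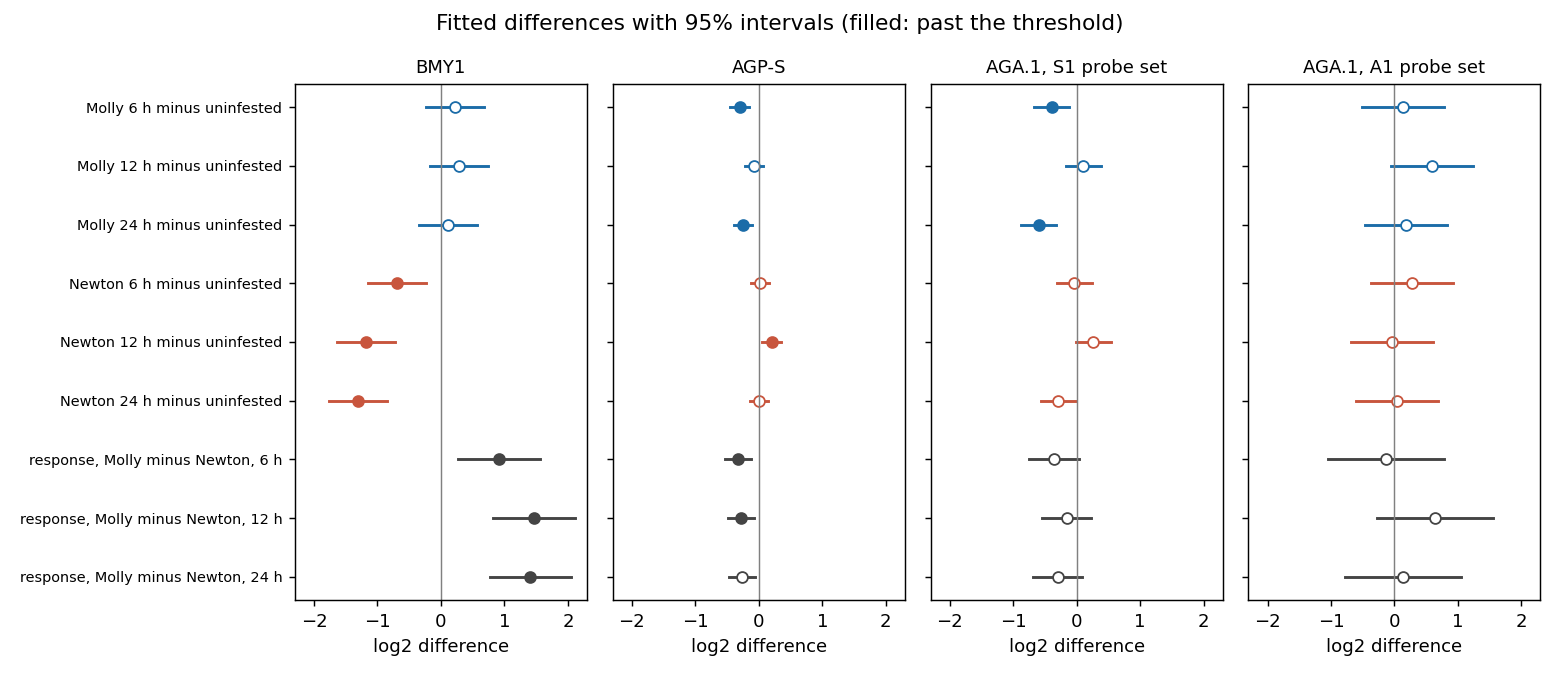
Fitted log2 differences (horizontal axis) with 95% intervals for the 4 probe sets: infested minus uninfested in Molly (blue) and in Newton (red) and the response of Molly minus that of Newton (grey), each at 6, 12 and 24 h down the vertical axis; filled circles passed the threshold. BMY1 lies at -0.69, -1.18 and -1.30 in Newton with intervals below 0 and spans 0 in Molly, and the intervals of the A1 probe set of AGA.1 span 0 in all 9 comparisons.

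AGP-S went the other way between the lines: the changes were small, and the falls were in Molly. Uninfested Molly arrays read 5868, 6246 and 5964 units. At 6 h they read 4887, 4919 and 4850.3, at 12 h 5385, 5389.9 and 6472, and at 24 h 4999, 5291 and 4896. The arrays at 6 and 24 h all lay below the uninfested ones, and those at 12 h overlapped them. AGP-S fell 1.23-fold in Molly at 6 h (log2 difference -0.30, SE 0.0697, adjusted p = 0.0016) and 1.19-fold at 24 h (-0.25, adjusted p = 0.011), when 19.5% and 12.1% of all tested probe sets fell. At 12 h, the matched time, the difference was -0.07 (95% interval -0.22 to 0.07, adjusted p = 0.47). The call at 24 h was lost without uninfested Molly replicate 2 (-0.23, adjusted p = 0.053). The 18S rRNA control averaged 5269 ± 1424 units in uninfested Molly and 1891 ± 543, 1534 ± 159.8 and 2796 ± 1250.2 at 6, 12 and 24 h (SD, n = 3), and the histone sums of Molly given above were also lower at each time. With the 18S rRNA covariate the falls of AGP-S were -0.39 and -0.31 (adjusted p = 0.0039 and 0.01), and that of AGA.1 at 24 h, described next, was -0.64 (adjusted p = 0.0072); the part of the histone signal in them was not tested. With arrays centred on their median, a scaling that moved the median of all tested probe sets from 0.02 to -0.23 at 6 h and from -0.01 to -0.17 at 12 h, AGP-S was called as a fall at 12 h too (-0.23, adjusted p = 0.04).

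In Newton the AGP-S arrays read 5788, 5620.3 and 5758 units without larvae, 5697, 5718 and 5987 at 6 h, 6269, 6339.6 and 7201 at 12 h, and 5576, 5829 and 5842 at 24 h. Only the arrays at 12 h stood apart, all above the uninfested ones. The rise there was 1.15-fold (0.20, SE 0.0697, adjusted p = 0.046), when 10.8% of all tested probe sets rose, and it was marginal. It was lost without Newton 12 h replicate 2 (0.23, adjusted p = 0.056) or 3 (0.14, adjusted p = 0.18), without uninfested Newton replicate 1 (0.21, adjusted p = 0.088), 2 (0.19, adjusted p = 0.13) or 3 (0.21, adjusted p = 0.089), and under 5 other settings, among them the 18S rRNA covariate (0.12, adjusted p = 0.5). At 6 and 24 h the differences were 0.02 (95% interval -0.13 to 0.16) and 0.01 (-0.14 to 0.15), intervals that do not reach the fitted falls of Molly at those times.

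The responses of AGP-S differed between the lines at 6 h (Molly minus Newton -0.32, SE 0.0986, adjusted p = 0.022) and at 12 h (-0.28, adjusted p = 0.045), and at 24 h the difference missed the threshold (-0.26, 95% interval -0.46 to -0.05, adjusted p = 0.078). Of all tested probe sets 12.8%, 13.7% and 9.00% were called in that direction at these times. At 6 h the call was lost without uninfested Newton replicate 2 (-0.31, adjusted p = 0.051) or uninfested Molly replicate 2 (-0.30, adjusted p = 0.056). At 12 h it was lost without any of 9 of the 12 arrays (-0.30 to -0.21, adjusted p = 0.052 to 0.12), which were Newton 12 h replicate 3, Molly 12 h replicates 1 and 2 and all 6 uninfested arrays. Among infested arrays at 6 h, AGP-S was 1.19-fold lower in Molly than in Newton (-0.25, adjusted p = 0.0097). Uninfested arrays enter the fitted spread there but not the difference. The highest Molly array read 4919 and the lowest Newton array 5697, and 17.5% of tested probe sets were lower in Molly. No single array decided that call. At 12 h the lines overlapped on AGP-S although the difference was called (-0.20, adjusted p = 0.032, with 17.5% of tested probe sets lower). It was lost without Newton 12 h replicate 3 (-0.14, adjusted p = 0.16) or Molly 12 h replicate 1 (-0.16, adjusted p = 0.14) or 2 (-0.16, adjusted p = 0.15). At 24 h the arrays did not overlap, at 5291 or less in Molly and 5576 or more in Newton, and the difference was not called (-0.18, adjusted p = 0.06). Uninfested, the Molly arrays lay just above the Newton ones, by 0.07 (95% interval -0.07 to 0.22, adjusted p = 0.66).

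AGP-S varied little over the arrays. Its 24 values spanned 1.48-fold, against a median of 2.61-fold over all tested probe sets, and its spread within groups (SD 0.0749 on the log2 scale) was smaller than that of all but 1.73% of them. It was also bright, above 95.2% of tested probe sets in mean log2 signal. Its spread was not compared with that of equally bright probe sets. Its group geometric means ran from 4886 (Molly 6 h) and 5059 (Molly 24 h) through 5721 (uninfested Newton), 5727 (Molly 12 h), 5747 (Newton 24 h), 5799 (Newton 6 h) and 6024 (uninfested Molly) to 6590.1 (Newton 12 h). Neighbours in this order did not differ beyond their spread (adjusted p from 0.074 to 0.99), and 10 of 28 pairs did, each of them with Molly at 6 h, Molly at 24 h or Newton at 12 h on at least 1 side.

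The brighter AGA.1 probe set, S1, fell in Molly at 6 and 24 h, as AGP-S did. Uninfested Molly arrays read 1877, 1717 and 1742 units. They read 1343, 1528 and 1211 at 6 h, 1651, 1835 and 2308 at 12 h, and 1111, 1205 and 1220.3 at 24 h. As with AGP-S, the arrays at 6 and 24 h lay below all uninfested ones and those at 12 h overlapped them. AGA.1 fell 1.31-fold at 6 h (-0.39, SE 0.132, adjusted p = 0.023) and 1.51-fold at 24 h (-0.59, SE 0.132, adjusted p = 0.0023), and at 12 h the difference was 0.11 (95% interval -0.17 to 0.38, adjusted p = 0.59). The call at 6 h was lost without Molly 6 h replicate 1 (-0.39, adjusted p = 0.056) or 3 (-0.31, adjusted p = 0.11), without uninfested Molly replicate 1 (-0.35, adjusted p = 0.078), and under the 18S rRNA covariate (-0.46, SE 0.182, adjusted p = 0.07). No array decided the call at 24 h (-0.62 to -0.55).

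In Newton the same probe set read 1640.1, 1669.7 and 1751 units without larvae, 1437, 1684 and 1844 at 6 h, 2122, 1635 and 2383 at 12 h, and 1406, 1273 and 1459 at 24 h. The arrays at 24 h lay below the uninfested ones, yet the log2 difference of -0.29 missed the threshold (95% interval -0.57 to -0.02, adjusted p = 0.10). At 6 and 12 h the groups overlapped (-0.03 and 0.26, adjusted p = 0.9 and 0.18); without Newton 12 h replicate 2, the lowest of its group, the difference at 12 h was called (0.42, adjusted p = 0.04). The responses of the lines were not shown to differ: Molly minus Newton was -0.36, -0.16 and -0.30 at 6, 12 and 24 h, with 95% intervals of -0.75 to 0.03, -0.55 to 0.23 and -0.69 to 0.09 (adjusted p = 0.18, 0.59 and 0.3). Uninfested Molly and Newton differed by 0.08 (95% interval -0.20 to 0.35, adjusted p = 0.84), and no difference between infested lines was called (-0.28, -0.08 and -0.23, adjusted p = 0.12, 0.7 and 0.24). Group geometric means ran from 1178 (Molly 24 h) through 1354 (Molly 6 h), 1377 (Newton 24 h), 1646 (Newton 6 h), 1686 (uninfested Newton), 1777 (uninfested Molly) and 1912 (Molly 12 h) to 2022 (Newton 12 h). No neighbours differed beyond their spread (adjusted p from 0.29 to 0.92), and 11 of 28 pairs did.

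The dimmer AGA.1 probe set, A1, did not follow. It ranged from 122 to 299.9 units, with group means from 150 ± 14 in uninfested Molly to 229 ± 47.7 in Molly at 12 h (SD, n = 3). With limma, 0 of the 28 pairs of groups differed past the threshold, and the pair farthest apart, Molly at 12 h and uninfested Molly, had an unadjusted p of 0.0703. Its spread within groups was wide (SD 0.405 on the log2 scale, above that of 75.7% of tested probe sets, against 0.167 for the brighter one). The 95% intervals of its changes against uninfested arrays reached from -0.69 to 1.24. Where the brighter probe set fell, the dimmer one had log2 differences of 0.14 (Molly 6 h, 95% interval -0.51 to 0.79) and 0.18 (Molly 24 h, -0.46 to 0.83), so the fall of AGA.1 rests on 1 of its 2 probe sets. At 24 h the brighter probe set's fall of 0.59 on the log2 scale lay below that interval, and at 6 h its -0.39 lay within it. The largest difference of the dimmer one was 0.59 in Molly at 12 h (adjusted p = 0.15), where its 3 arrays (217, 188 and 281) all lay above the uninfested ones (136, 149 and 164). In the naming of this array S and A mark opposite orientations of the sequence the probe set was designed from; which strand of AGA.1 each detects was not determined here.

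AGP-S and the brighter AGA.1 probe set had their highest infested mean at 12 h in both lines; the dimmer AGA.1 probe set had it at 12 h in Molly (229) and at 6 h in Newton (224). From 6 to 12 h AGA.1 in its brighter probe set rose 1.41-fold in Molly (0.50, SE 0.132, adjusted p = 0.03), where 2.80% of all tested probe sets rose, and had a log2 difference of 0.30 in Newton (95% interval 0.02 to 0.57, adjusted p = 0.31). From 12 to 24 h it fell 1.62-fold in Molly (-0.70, adjusted p = 0.00089) and 1.47-fold in Newton (-0.55, adjusted p = 0.0097), where 8.06% and 6.34% fell. AGP-S had differences of 0.23 and 0.18 up to 12 h and of -0.18 and -0.20 after it, in Molly and Newton. None of these 4 differences of AGP-S was called (adjusted p = 0.062, 0.21, 0.086 and 0.071). The rise of AGA.1 in Molly was lost without Molly 6 h replicate 1 (0.49, adjusted p = 0.08) or 3 (0.42, adjusted p = 0.14) or Molly 12 h replicate 2 (0.53, adjusted p = 0.06) or 3 (0.36, adjusted p = 0.2). The fall in Newton was lost without Newton 12 h replicate 3 (-0.44, adjusted p = 0.075) or Newton 24 h replicate 2 (-0.50, adjusted p = 0.051), and the fall in Molly was kept without each array (-0.81 to -0.56). The 12 h arrays enter both steps, so the steps are not independent. As for BMY1, infestation cannot be told apart from plant age and time of day in the falls of AGP-S and AGA.1 in Molly at 6 and 24 h. In the steps between times, the time of larval feeding, plant age and time of day changed together and cannot be told apart either. The difference between infested Molly and infested Newton at 6 h, in which AGP-S was lower in Molly, takes in no uninfested array. As no uninfested sheaths were taken at 6 or 24 h, infestation cannot be told apart from a line difference without larvae in such comparisons at those times.

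**Figure D3:**
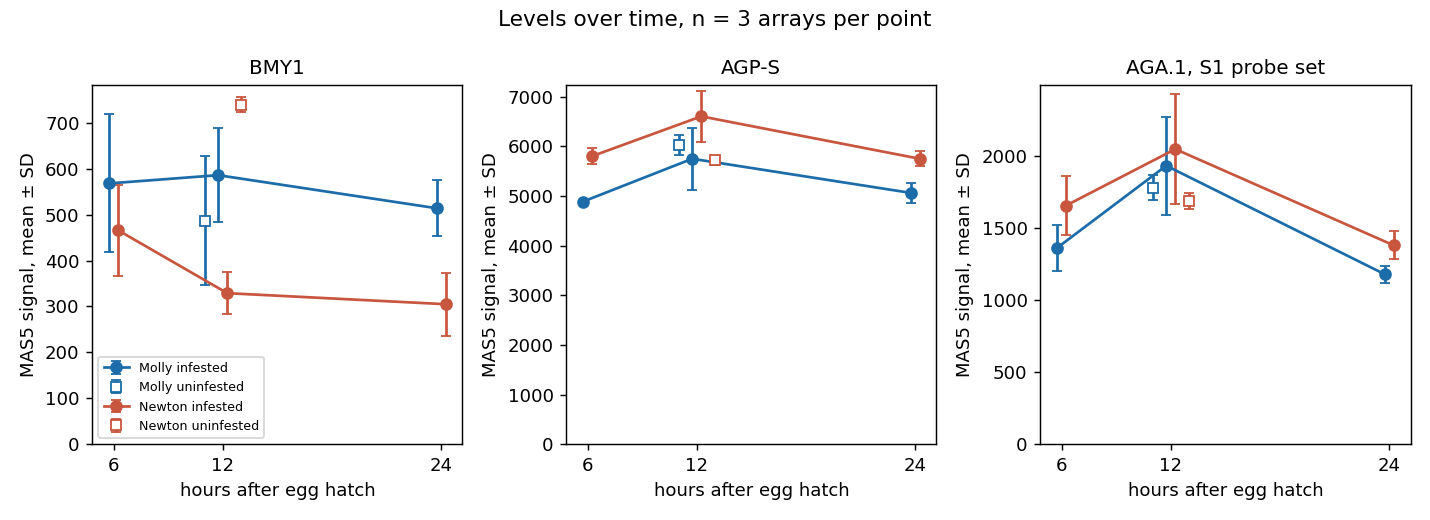
Mean MAS5 signal ± SD (vertical axis, linear units from 0, n = 3) against hours after egg hatch for BMY1, AGP-S and the S1 probe set of AGA.1; filled circles joined by lines are infested groups, open squares are uninfested groups sampled at 12 h, blue is Molly, red is Newton, and points are shifted sideways for clarity. AGP-S peaks at 12 h at 5749 in infested Molly and 6603 in infested Newton and AGA.1 at 1931 and 2046, while BMY1 in Newton goes from 466 to 305 between 6 and 24 h.

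Counted over the members, 2 of 4 probe sets (AGP-S and AGA.1) fell in Molly at 6 h and at 24 h. The shares of all tested probe sets that fell there were 19.5% and 12.1%. At 12 h 0 of 4 were called or had an unadjusted p under 0.05 in limma. Called in either direction were 37.8%, 34.1% and 24.0% of all tested probe sets at 6, 12 and 24 h. In Newton 1 of 4 (BMY1) fell at 6 h and at 24 h, where 6.54% and 13.8% of all tested probe sets fell. At 12 h 1 fell and 1 (AGP-S) rose, where 7.76% of all fell and 10.8% rose. Called in either direction were 15.2%, 18.6% and 30.5% at 6, 12 and 24 h. No member was called between uninfested lines by limma at the adjusted threshold, where 3.40% of all were; BMY1 alone had an unadjusted p under 0.05 there (0.00814). The responses of the lines differed for 2, 2 and 1 of the 4 at 6, 12 and 24 h (all tested: 23.4%, 25.1% and 17.4%), and infested Molly and Newton for 1, 2 and 1 (30.9%, 30.8% and 24.6%). From 6 to 12 h 1 of 4 was called in Molly (5.04%) and 0 in Newton (2.50%), where 3 of 4 had an unadjusted p under 0.05 in limma; from 12 to 24 h 1 was called in each line (16.7% and 11.7%). The medians of the 4 members against uninfested arrays were -0.08, 0.20 and -0.07 in Molly and -0.01, 0.08 and -0.14 in Newton at 6, 12 and 24 h. Among the comparisons of infested with uninfested arrays, called changes of opposite direction occurred only in Newton at 12 h. The medians of all tested probe sets lay between -0.02 and 0.07.

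AGP-S and the brighter AGA.1 probe set varied together over the arrays. Their log2 signals had r = 0.826 over 8 group means and r = 0.783 over 24 arrays, and r = 0.621 for the deviations of arrays from their group means; without Molly 6 h replicate 3 and Newton 12 h replicate 3, the arrays farthest from the median of AGP-S, r over arrays was 0.698. The brightest array for both was Newton 12 h replicate 3, followed by Molly 12 h replicate 3. The brighter and dimmer AGA.1 probe sets had r = 0.252 over arrays, or 0.0258 without the 2 farthest arrays. BMY1 had r = -0.389 with AGP-S and 0.0251 with the brighter AGA.1 probe set over 24 arrays. Signals on one array share a hybridisation and a scaling factor, so these correlations are descriptions of the arrays.

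**Figure D4:**
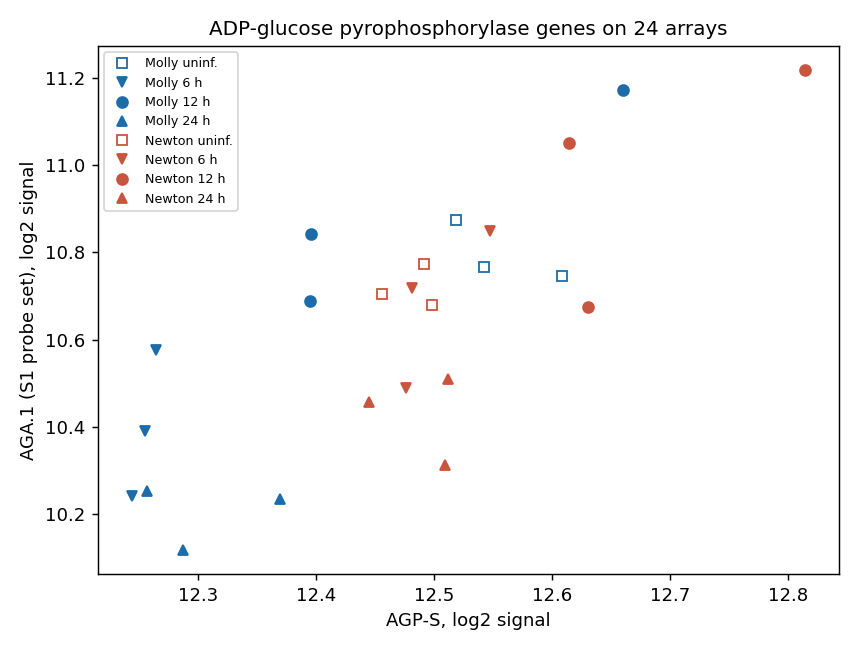
Log2 signal of AGA.1 (S1 probe set, vertical axis) against that of AGP-S (horizontal axis) on 24 arrays; colour gives the line (blue Molly, red Newton), shape the time and open squares the uninfested groups. The arrays of Molly at 6 and 24 h lie at the lower left and 2 arrays at 12 h at the upper right (r = 0.783).

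Among 134 tested probe sets of named genes, those with patterns most like each member over the 8 group means were named by a fixed rule, the first 3 of the highest Pearson r. For BMY1 the closest was 6-FEH, which encodes a fructan exohydrolase (r = 0.827 for 1 of its probe sets), whose means in infested Newton (43.8, 17 and 12.5 units) lay in the range of the tag controls. The glutenin gene LMW-GS (0.758) and the Rubisco gene rbcl (0.749) followed, both dim. Over the 24 arrays, r with BMY1 was 0.707 for 6-FEH, 0.253 for LMW-GS and 0.457 for rbcl. Of all tested probe sets 1.56% were at least as close to BMY1 as 6-FEH. For AGP-S they were la-17 (0.948), the TATA-binding protein gene TBP1 (0.921) and a probe set of TaPrx1 (0.919), and 0.145% of all were as close as la-17. Over the 24 arrays these 3 had r = 0.727, 0.555 and 0.809. For the brighter AGA.1 probe set all 3 were probe sets of TaPrx1 (0.9, 0.885 and 0.832), with 0.48% of all as close as the first. Their r over the 24 arrays was 0.867, 0.881 and 0.824. The dimmer one had UBC1, a ubiquitin-conjugating enzyme gene, first at 0.707, then gli-2 (0.7) and the histone gene wcH2A-3 (0.635). Over the 24 arrays these had r = 0.327, 0.33 and 0.0183.

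Other genes of starch and sugar storage could be followed only in part. The starch list held 5 named probe sets, of which 4 were the members. The fifth, of the granule-bound starch synthase GBSS, which makes amylose, ranged from 4.04 to 15.6 units over all arrays. It lay in the range of the tag controls and was not tested. The sucrose and fructan list held 4 tested probe sets, 3 of 6-FEH and 1 of 1-FEHw2, both of which break down fructan, the main storage sugar of wheat leaf sheaths. In Molly 1 of the 4 rose and 1 fell at 6 h, 1 rose at 12 h and 0 were called at 24 h. In Newton 0 were called at 6 h, 2 fell at 12 h and 1 at 24 h. Of all tested probe sets 37.8%, 34.1% and 24.0% were called in either direction in Molly and 15.2%, 18.6% and 30.5% in Newton. The share that fell was 19.5% in Molly at 6 h, and 7.76% and 13.8% in Newton at 12 and 24 h. Of the 4 probe sets of this list, 3 belong to 1 gene. The bright probe set of 1-FEHw2 fell by 0.30 in Molly at 6 h (adjusted p = 0.011), from 4679 ± 286 to 3818 ± 335 units (SD, n = 3), and had a difference of -0.17 in Newton at 12 h (adjusted p = 0.19). A probe set of 6-FEH rose in Molly at 6 h, to 281 to 334 units from 43.3 to 85.3 (adjusted p = 0.00073), and at 12 h, to 128 to 243 (adjusted p = 0.029). In Newton its called fall at 12 h (adjusted p = 0.008), like those of the 6-FEH probe set closest to BMY1 at 12 and 24 h, was largely between signals that the tag controls also reach. On uninfested Newton arrays these probe sets read 59 to 70.3 and 58.1 to 117 units, above the tag median of 17.2. Among infested arrays the first of these stood higher in Molly than in Newton at 6, 12 and 24 h (adjusted p = 2.9e-05, 1.9e-05 and 0.0024), at 281 to 334, 128 to 243 and 119.7 to 263 units against 21.2 to 62, 8.77 to 26.7 and 24.5 to 55.8. The remaining 6-FEH probe set went the other way at 6 h, lower in infested Molly than in infested Newton (-1.24, adjusted p = 0.029) at 17.7 to 86.9 against 103 to 140.5 units, and it was not called against uninfested Molly (-0.95, adjusted p = 0.082). Between infested lines at 12 and 24 h it was not called (adjusted p = 0.79 and 0.61). The probe set closest to BMY1 was higher in infested Molly at 6, 12 and 24 h (2.51, 4.19 and 4.42, adjusted p = 0.0063, 6.4e-05 and 5.2e-05). Its means in infested Newton lay in the range of the tag controls. The probe sets of 6-FEH therefore did not all agree.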

How the data were processed

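Expression was measured on 24 Affymetrix wheat arrays. The authors deposited 1 linear intensity per probe set, computed with MAS5 per the submitters' processing notes, whose version and settings were not given in the sources used here. Trimmed means were 498.7 to 499.1 on every array, so the authors' scaling was kept. All arrays held different values, and arrays of one group correlated at r = 0.951 to 0.974. Of 61290 probe sets, 111 Affymetrix controls and 64 reporter-gene probe sets were set aside, and the 40% with the lowest mean log2 signal were left out (44.9 units at that limit), leaving 36669.

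The log2 of the deposited signal was modelled in limma 3.58.1 (R 4.3.3) as 1 mean for each group over all 24 arrays, with an intensity-dependent variance prior, 16 residual degrees of freedom and a median of 4.49 from the prior. Tests were two-sided, adjusted by Benjamini-Hochberg within each of 17 comparisons and each of 28 pairs of groups, with a threshold of 0.05. "Rose", "fell" and "called" refer to it, and intervals are 95% intervals of the fit, unadjusted. The procedure was also run on simulated data, with independent probe sets and changes larger than any of the members here. That run says nothing of calls as small as those of AGP-S. Precision is set by the number of arrays, as no counts underlie the values.

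The annotation paired 1273 probe sets with 771 genes, 770 of them in the supplied RefSeq table (IWGSC CS RefSeq v2.1), from whose synonyms the names come. Coordinates and sequences were not used here. Named were the members, the 3 named probe sets most like each, and, from lists by symbol, those with the largest changes; members and lists were chosen with earlier results of these data known. Alternatives were 2 other filters, 2 scalings, an offset of 50, a constant prior, a replicate block, an 18S rRNA covariate, fits of the compared groups alone and leaving out each array.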

Additional observations from a re-analysis of the deposited data

Results flagged for a closer look

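In 5 results the response to infestation differed between Molly and Newton by a test of the difference itself. The response of BMY1 in Molly exceeded that in Newton by 0.911 at 6 h (adjusted p = 0.037), 1.47 at 12 h (adjusted p = 0.0014) and 1.41 at 24 h (adjusted p = 0.0031) on the log2 scale. The response of AGP-S in Molly minus that in Newton was -0.322 at 6 h (adjusted p = 0.022) and -0.277 at 12 h (adjusted p = 0.045). At 6, 12 and 24 h, 23.4%, 25.1% and 17.4% of all tested probe sets differed in this way. The 3 times share their uninfested arrays. Groups of 3 arrays are too small to be searched for single outlying arrays.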

How the results depend on the processing

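Over 68 member results and 9 alternative settings, 579 of 612 values kept their side of the threshold and 0 changed direction while called. BMY1 in Newton at 12 and 24 h ran from -1.56 to -1.07 and from -1.83 to -1.17 over the settings and stayed past the threshold, as did its difference of response (1.33 to 1.47 and 1.27 to 1.69), AGP-S in Molly at 6 h (-0.557 to -0.237) and AGA.1 in Molly at 24 h (-0.738 to -0.574).

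With no filter on dim probe sets the calls of BMY1 in Newton at 6 h (-0.688, adjusted p = 0.054), of its response at 6 h (0.911, adjusted p = 0.054), of AGP-S in Newton at 12 h (0.204, adjusted p = 0.081), of its response at 12 h (-0.277, adjusted p = 0.078) and of AGP-S between infested lines at 12 h (-0.202, adjusted p = 0.056) were lost, where more probe sets enter the adjustment. With a stricter filter AGP-S was called between infested lines at 24 h (-0.184, adjusted p = 0.046) and from 6 to 12 h in Molly (0.229, adjusted p = 0.045). Quantile normalisation lost BMY1's response at 6 h (0.835, adjusted p = 0.056) and called AGP-S from 12 to 24 h in Molly (-0.185, adjusted p = 0.05) and Newton (-0.208, adjusted p = 0.039). Median centring lost AGP-S in Newton at 12 h (0.173) and BMY1's response at 6 h (0.717) and called AGP-S in Molly at 12 h (-0.231), AGA.1 between infested lines at 6 h (-0.437), and AGP-S between infested lines at 24 h (-0.236) and from 6 to 12 h in Molly (0.326). A constant variance prior lost AGP-S in Newton at 12 h (0.204), its responses at 6 and 12 h (-0.322 and -0.277), AGP-S between infested lines at 12 h (-0.202) and AGA.1 from 6 to 12 h in Molly (0.498). The 18S rRNA covariate lost AGA.1 in Molly at 6 h (-0.459) and AGP-S in Newton at 12 h (0.115) and called AGP-S from 12 to 24 h in Newton (-0.23). With only the compared groups in the fit, which leaves fewer arrays, AGP-S in Newton at 12 h (0.204), BMY1's response at 6 h (0.911), AGP-S's response at 12 h (-0.277), AGP-S between infested lines at 12 h (-0.202), and AGA.1 from 6 to 12 h in Molly (0.498) and from 12 to 24 h in Newton (-0.554) were lost. That fit called the dimmer AGA.1 probe set in Molly at 12 h (0.593), AGA.1 in Newton at 24 h (-0.293) and AGP-S's response at 24 h (-0.258). For the other settings the cause was not tested.

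Leaving out each array in turn changed the call of these results. BMY1 ranged from -0.832 to -0.519 in Newton at 6 h, from 0.723 to 1.13 in its response at 6 h, from -0.862 to -0.475 between uninfested lines and from 0.605 to 0.933 between infested lines at 24 h. AGP-S ranged from -0.284 to -0.226 in Molly at 24 h, from 0.14 to 0.24 in Newton at 12 h, from -0.341 to -0.296 and from -0.365 to -0.213 in its responses at 6 and 12 h, from -0.291 to -0.139 between infested lines at 12 h and from 0.141 to 0.274 from 6 to 12 h in Molly, where it was called without Molly 12 h replicate 1. AGA.1 ranged from -0.479 to -0.311 in Molly at 6 h, from 0.143 to 0.415 in Newton at 12 h, from 0.362 to 0.604 from 6 to 12 h in Molly and from -0.708 to -0.436 from 12 to 24 h in Newton.

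Replicate numbers recur in all groups. Over 84 pairs of same-numbered arrays of different groups, deviations from group means correlated at -0.225 to 0.176, and 4 of 24 arrays correlated best with their own number, so the numbers were not taken as a pairing. A replicate block changed no call of a member; for BMY1 in Newton at 12 h it gave -1.18 (SE 0.193, adjusted p = 0.00037). Counts over all probe sets moved by more than 1.5 times under the 18S rRNA covariate, from 12511 to 6836 in Molly at 12 h, from 5568 to 1865, 6822 to 3543 and 11169 to 5685 in Newton at 6, 12 and 24 h, and from 6107 to 4003 between 12 and 24 h in Molly. With only the compared groups they moved from 6822 to 4013 in Newton at 12 h, from 1247 to 2695 between uninfested lines, from 6107 to 4042 between 12 and 24 h in Molly, and from 917 to 232 and 4288 to 691 between successive times in Newton.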
